A study of Mus musculus with 12 samples.

Results

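The mevalonate arm of sterol synthesis was followed through 9 listed enzymes that act between acetyl-CoA and squalene. They were found by gene symbol and are given in pathway order: *Acat2*, *Hmgcs1*, *Mvk*, *Pmvk*, *Mvd*, *Idi1*, *Fdps*, *Ggps1* and *Fdft1*. Of these, 8 had values among the 10697 genes tested. *Idi1*, which interconverts the pathway's isoprene units, was not analysed here. Primary mouse adult fibroblasts (MAFs) were grown in culture out of biopsies of wild-type (WT) C57BL6/j mice. They received 100 µM thymol, a phenolic monoterpene of thyme and oregano, or the solvent DMSO alone for 24 h, with 6 libraries in each group. The age of the mice and the tissue of the biopsies were not given in the sources used here. The libraries were made by QuantSeq, in which each transcript is read at its 3′ end, so that a level is a number of transcript ends and needs no division by gene length. Levels are given as log2 CPM, reads scaled to a common library total and put on a base 2 logarithm, and every difference is thymol minus DMSO on that scale.

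The mevalonate pathway joins acetyl-CoA units into isoprene building blocks. These are combined into farnesyl pyrophosphate, from which the route branches to squalene and cholesterol, to the prenyl groups of small GTPases, to dolichol and to ubiquinone. In mammalian cells many of its enzymes are transcribed under SREBP2, a transcription factor that is cut free of the membrane when sterol in the endoplasmic reticulum is low and is held back by INSIG proteins when sterol is plentiful.

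Recovered read totals lay between 5435985 and 9049796 per library and did not differ between groups beyond the spread (exact two-sided permutation test, p = 0.396). The highest total was that of thymol replicate 5, which widened the thymol spread. The other thymol libraries had 5435985 to 6585162 reads, and the DMSO libraries 6240828 to 8064382. The test does not show that depth was equal. The labels did not say whether the libraries of a group came from separate cultures or animals, so the p-values measure the spread between these libraries, which may be technical. All 15 listed macrophage markers were measured beside 13 of 14 fibroblast markers. The summed level of the macrophage markers was 18988 to 20978 CPM in the DMSO libraries and 19181 to 22911 CPM in the thymol libraries. Of these markers 1 was called lower and 1 higher (limma adjusted p under 0.05), against 2.22% of all genes in either direction. The measured fibroblast markers summed to 10012 to 11124 CPM with DMSO and 9095 to 9906 CPM with thymol. Both ranges lay below those of the macrophage markers. The sums cover different genes and do not give shares of cells. No listed epithelial or lymphocyte marker was among the genes tested, and 1 of 5 endothelial markers was.

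Promoters of 4 of the enzymes are shown because they span the range of responses described below, from 3 enzymes that were lower with thymol to *Ggps1*, whose groups overlapped. Each is the stretch of 250 bases that ends just before the RefSeq gene start (GRCm38.p6), written 5′ to 3′ on the strand of the gene. Capitals mark 2 motifs looked for on both strands, CACNCCAC, which resembles the core of a sterol regulatory element, and CCAAT, the box bound by NF-Y. Read on the opposite strand, CCAAT is ATTGG.
Acat2 promoter, chr17:12960726-12960975, strand -: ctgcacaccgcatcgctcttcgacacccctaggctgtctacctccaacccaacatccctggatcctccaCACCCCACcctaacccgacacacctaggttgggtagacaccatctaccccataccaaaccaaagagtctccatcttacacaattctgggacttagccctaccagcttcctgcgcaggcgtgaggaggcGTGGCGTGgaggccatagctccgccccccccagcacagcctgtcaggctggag
Hmgcs1 promoter, chr13:119690101-119690350, strand +: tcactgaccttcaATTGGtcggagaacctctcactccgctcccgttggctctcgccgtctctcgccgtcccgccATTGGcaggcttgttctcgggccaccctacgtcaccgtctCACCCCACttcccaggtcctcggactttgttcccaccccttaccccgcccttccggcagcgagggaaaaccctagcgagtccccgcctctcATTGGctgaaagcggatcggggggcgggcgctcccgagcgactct
Mvd promoter, chr8:122443423-122443672, strand -: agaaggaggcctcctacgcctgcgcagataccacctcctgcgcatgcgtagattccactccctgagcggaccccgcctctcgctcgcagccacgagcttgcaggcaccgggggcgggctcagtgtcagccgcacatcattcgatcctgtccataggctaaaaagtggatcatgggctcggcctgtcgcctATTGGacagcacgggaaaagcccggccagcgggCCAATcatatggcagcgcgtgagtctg
Ggps1 promoter, chr13:14063489-14063738, strand -: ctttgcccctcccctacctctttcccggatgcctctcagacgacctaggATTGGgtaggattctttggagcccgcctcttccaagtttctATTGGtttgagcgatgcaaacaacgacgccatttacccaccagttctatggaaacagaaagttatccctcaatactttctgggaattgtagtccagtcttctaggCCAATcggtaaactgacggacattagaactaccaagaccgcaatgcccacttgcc

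The set of RefSeq promoters used here held 7 of the 9 enzymes and had no entry for *Fdps* or *Fdft1*. The CACNCCAC core was found in 2 of the 7, with 2 matches in *Acat2*, 1 on each strand, and 1 match in *Hmgcs1*. It was found in 5.29% of the 32851 promoter stretches of this length. CCAAT was found in 6 of the 7, all but *Acat2*, and in 33.8% of all stretches. Both motifs stood together in 1 member, *Hmgcs1*, and in 1.6% of all stretches. *Ggps1* held 3 CCAAT matches, as did *Hmgcs1*, and *Mvd* held 2. Of the post-squalene enzymes, 9 of 11 had a promoter in this set, of which 0 held the CACNCCAC core and 9 held CCAAT. *Pmvk* and *Dhcr7* had more than 1 stretch, not all with CCAAT. An enzyme was counted if any of its stretches held the motif, while the shares over all stretches count each stretch by itself. A match describes these letters in this window and is not evidence of a bound site.

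The first question was whether thymol changed the transcripts of these enzymes. Of the 8 measured enzymes, 4 were lower with thymol and 0 were higher at a limma adjusted p under 0.05. Over all genes, 1.57% were lower and 0.654% were higher by the same rule, which makes 2.22% in either direction. At an unadjusted p under 0.05 the count was 6 of the 8 enzymes, against 11.8% of all genes. The 4 that passed after adjustment were *Acat2*, *Hmgcs1*, *Mvd* and *Fdps*. In sign, 7 of the 8 were lower and *Ggps1* was higher by 0.03, and 49.1% of all genes had a negative fold change. The median log2 fold change of the 8 enzymes was -0.45, against 0.0026 over all genes. In bulk RNA, fewer cells of a type and less RNA per cell cannot be told apart. The summed level of the 13 measured fibroblast markers was also lower with thymol, at 9095 to 9906 CPM against 10012 to 11124 CPM with DMSO, with 2 of the 13 called lower. The 2 measured of 5 listed skeletal muscle markers were *Des* and *Acta1*, while *Myod1*, *Myog* and *Actn2* were not among the genes tested. The 2 summed to 93.2 to 125 CPM with thymol and 133 to 160 CPM with DMSO, with 1 of the 2 called lower. The 1 measured of 4 listed adipocyte markers was *Fabp4*, without *Adipoq*, *Plin1* or *Cidec*. It was at 75.3 to 91.8 CPM with DMSO and 89.5 to 110 CPM with thymol and was not called. With most of their markers not among the genes tested, these values do not establish the presence of either cell type. The part of any of these in the enzymes' differences was not tested.

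**Figure D1:**
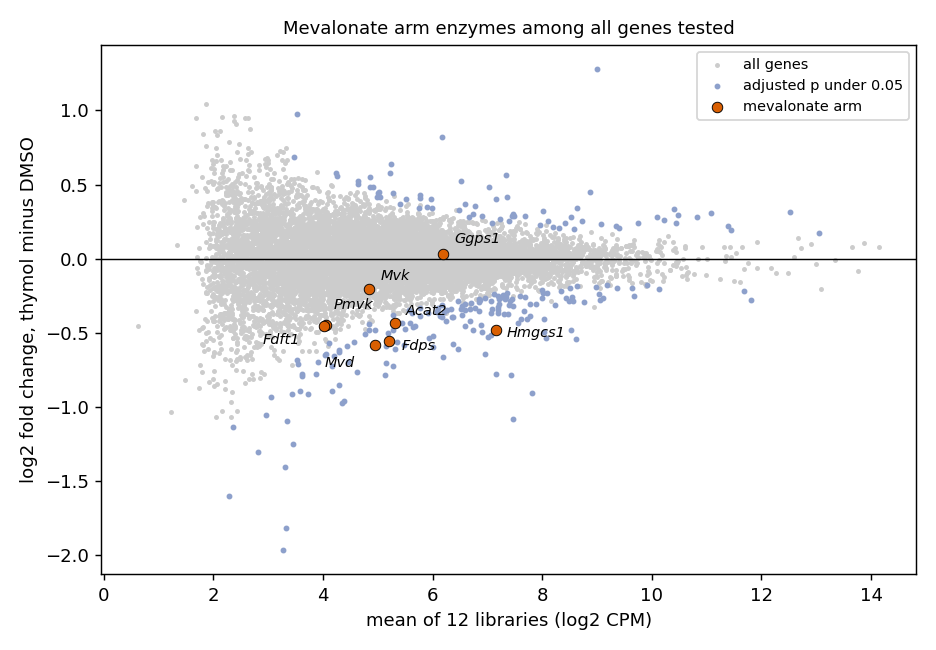
Fold change of each gene (y axis, log2, thymol minus DMSO) against its mean level over the 12 libraries (x axis, log2 CPM). Grey points are all genes, blue points have a limma adjusted p under 0.05, and orange points are the 8 measured mevalonate arm enzymes, of which 7 lie below the zero line and *Ggps1* lies at 0.03.

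The opening steps carry acetyl-CoA towards mevalonate. *Acat2* (chr17:12942890-12960747, minus strand, GRCm38) encodes the cytosolic thiolase that joins 2 acetyl-CoA into acetoacetyl-CoA. Its levels ran from 5.19 through a median of 5.53 to 5.73 log2 CPM in the DMSO libraries. In the thymol libraries they ran from 4.99 through a median of 5.06 to 5.36 log2 CPM. The groups overlapped through 1 library on each side, the lowest of DMSO and the highest of thymol, and the other 5 of each group stood apart. *Acat2* fell by 25.8%, a log2 fold change of -0.43 (95% interval -0.65 to -0.21, limma adjusted p = 0.0168). The call rested on single libraries, since the adjusted p was 0.0677 without DMSO replicate 1 and 0.0592 without DMSO replicate 3, with a log2 fold change of -0.39 in both fits.

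*Hmgcs1* (chr13:119690379-119708260, plus strand) encodes the cytosolic synthase that adds a further acetyl-CoA to give HMG-CoA. It had the most reads of the 8 enzymes, between 640 and 1341 per library. Its level was between 7.30 and 7.51 log2 CPM with DMSO, with a median of 7.39, and between 6.80 and 6.97 log2 CPM with thymol, with a median of 6.95. Every thymol library lay below every DMSO library, a separation in this direction that held for 1.16% of all genes. *Hmgcs1* fell by 28.4%, a log2 fold change of -0.48 (95% interval -0.61 to -0.35, limma adjusted p = 8.58e-07). It stood at place 15 of all genes when ordered by p. When any 1 of the 12 libraries was left out, its log2 fold change stayed between -0.50 and -0.46.

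**Figure D2:**
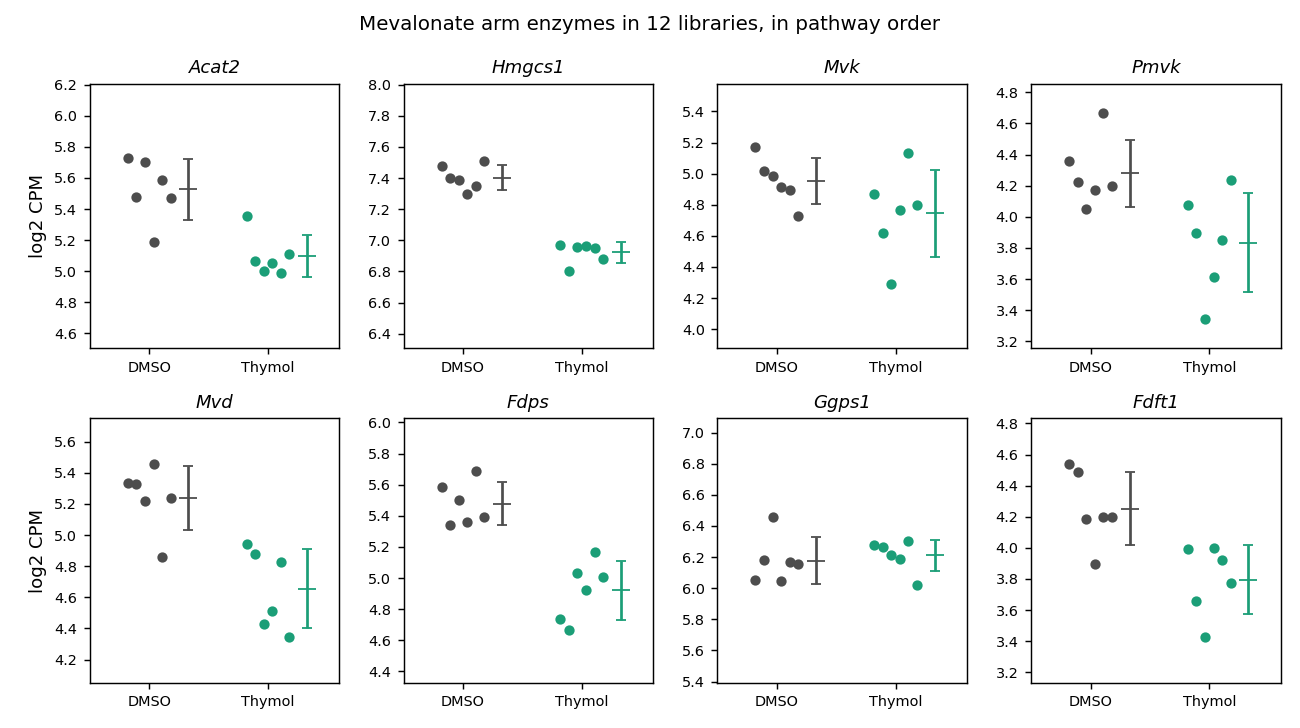
Level of each measured enzyme (y axis, log2 CPM, a separate range for each panel of equal height in log2 units) in the 6 DMSO and 6 thymol libraries, with the mean and SD beside the points. The groups do not overlap for *Hmgcs1* and *Fdps*, and they overlap almost fully for *Ggps1*.

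No listed enzyme covers the step from HMG-CoA to mevalonate. The next 3 listed enzymes phosphorylate mevalonate and decarboxylate the product to isopentenyl pyrophosphate. *Mvk* (chr5:114444269-114460591, plus strand), the first kinase, had levels of 4.95 ± 0.15 log2 CPM with DMSO and 4.74 ± 0.28 log2 CPM with thymol (SD, n = 6 each). Thymol libraries reached from 4.29 to 5.13 and DMSO libraries from 4.72 to 5.17, so most of the values overlapped. The log2 fold change of -0.21 had a 95% interval of -0.47 to 0.05 and did not pass (limma adjusted p = 0.584). That interval holds no change as well as most of the decrease seen in *Hmgcs1*, so a smaller fall of *Mvk* was not detectable at this spread.

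*Pmvk* (chr3:89454541-89469013, plus strand), the second kinase, ran from 4.05 through a median of 4.21 to 4.67 log2 CPM with DMSO and from 3.34 through a median of 3.87 to 4.24 log2 CPM with thymol. Of the 6 thymol libraries, 4 lay below the lowest DMSO library. Its log2 fold change was -0.45, close to that of *Hmgcs1*, but its interval was wider, from -0.78 to -0.11, and it did not pass (limma adjusted p = 0.2, unadjusted p = 0.0104). *Pmvk* rested on 63 to 157 reads per library.

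*Mvd* (chr8:122433601-122443422, minus strand), the decarboxylase, had the lowest fold change of the 8 enzymes. Its DMSO libraries ran from 4.86 through a median of 5.28 to 5.45 log2 CPM, and its thymol libraries from 4.35 through a median of 4.67 to 4.94 log2 CPM. The ranges met through 1 low DMSO library, and the other 5 DMSO libraries lay above every thymol library. The level fell by 33.2%, a log2 fold change of -0.58 (95% interval -0.84 to -0.33, limma adjusted p = 0.00354). Over all genes, 1.05% had a lower fold change.

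Beyond isopentenyl pyrophosphate the isoprene units are joined into longer chains. *Fdps* (chr3:89093588-89101959, minus strand) encodes farnesyl pyrophosphate synthase, which makes the product at the branch point. Its levels were 5.34 to 5.69 log2 CPM with DMSO, with a median of 5.45, and 4.66 to 5.17 log2 CPM with thymol, with a median of 4.96. Every thymol library again lay below every DMSO library. *Fdps* fell by 32.1%, a log2 fold change of -0.56 (95% interval -0.78 to -0.33, limma adjusted p = 0.00121). In the annotation it shares 1124 exon bases with Gm43738 on the same strand, starting 59 bases from its 3′ end, so how the counting dealt with reads there bears on its level.

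*Ggps1* (chr13:14050659-14063488, minus strand) makes geranylgeranyl pyrophosphate, which feeds protein prenylation and does not lead to sterol. It ran from 6.05 through a median of 6.16 to 6.46 log2 CPM with DMSO and from 6.02 through a median of 6.24 to 6.30 log2 CPM with thymol. The groups overlapped, with a DMSO library the highest of the 12 and a thymol library the lowest. The log2 fold change was 0.03 with a 95% interval of -0.13 to 0.20 (limma adjusted p = 0.944). That interval does not reach the fold changes of *Hmgcs1*, *Mvd* or *Fdps*. With 352 to 713 reads per library, *Ggps1* was counted more deeply on average than *Acat2*, *Mvd* or *Fdps*.

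*Fdft1* (chr14:63145150-63179578, minus strand) encodes squalene synthase, the step that commits farnesyl pyrophosphate to sterol. It ran from 3.89 through a median of 4.20 to 4.54 log2 CPM with DMSO and from 3.43 through a median of 3.85 to 4.00 log2 CPM with thymol. The lowest DMSO library lay within the thymol range and the other 5 above it. Its log2 fold change of -0.45 did not pass (95% interval -0.78 to -0.12, limma adjusted p = 0.175, unadjusted p = 0.00805). The 3′ end of *Fdft1* shares 774 exon bases with *Ctsb*, a lysosomal protease gene on the opposite strand. Whether the counting used strand was not given in the sources used here, so how reads of the shared stretch were assigned is not known. *Ctsb* had 18336 reads per DMSO library on average, against 134.5 for *Fdft1*, and its log2 fold change was 0.19 (limma adjusted p = 0.00421). The part of the shared stretch in the *Fdft1* difference was not tested.

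**Figure D3:**
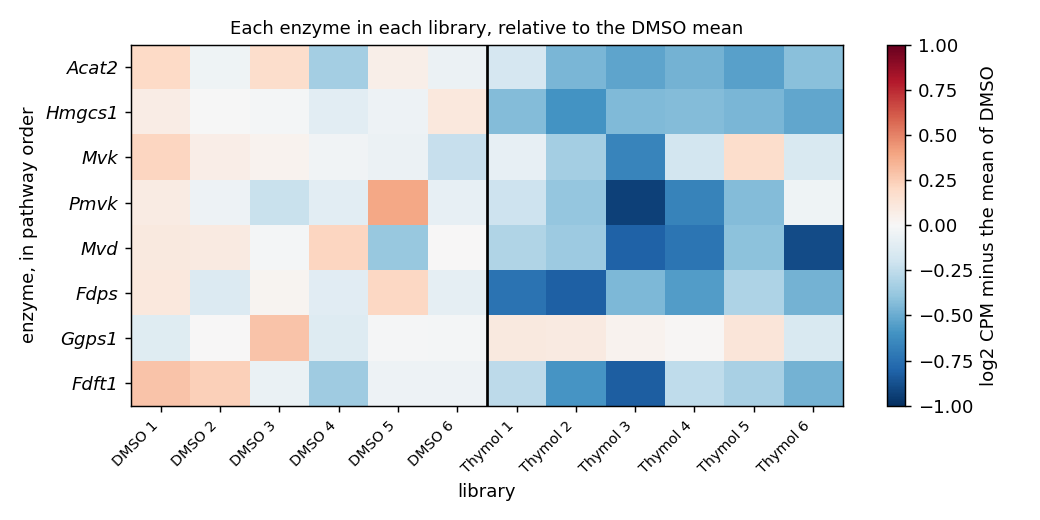
Each measured enzyme (rows, in pathway order) in each of the 12 libraries (columns), coloured by its log2 CPM minus the mean of the 6 DMSO libraries. Blue, below the DMSO mean, fills most of the thymol columns except in the row of *Ggps1*.

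Set side by side, the measured enzymes of the list that lead to squalene had log2 fold changes of -0.58 to -0.21. The one that branches off to geranylgeranyl groups had 0.03. *Ggps1* was singled out after its values were seen, so the contrast is given as a description with no test. The level of *Hmgcs1* exceeded that of *Ggps1* by 1.23 ± 0.17 in the DMSO libraries and by 0.71 ± 0.11 in the thymol libraries (log2, SD, n = 6 each). For 4 of the 7 other enzymes, *Acat2*, *Hmgcs1*, *Mvd* and *Fdps*, the difference from *Ggps1* within a library was lower in every thymol library than in any DMSO library, which held for 0.486% of all genes set against *Ggps1*. For *Mvk*, *Pmvk* and *Fdft1* the differences overlapped between groups.

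Taken per library, the 8 enzymes summed to 441 ± 19.7 CPM with DMSO, from 408 to 466 CPM, and to 342 ± 17.2 CPM with thymol, from 325 to 363 CPM (SD, n = 6 each). No thymol library reached the lowest DMSO library. The mean of the 8 log2 levels was 5.41 ± 0.081 with DMSO and 5.02 ± 0.12 with thymol. The lowest library mean was that of thymol replicate 3, at 4.84, in which *Mvk*, *Pmvk* and *Fdft1* each had their lowest value of all 12 libraries. Thymol replicate 5, in which *Mvk* was highest among the thymol libraries, had a mean of 5.14.

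The second arm of the pathway, from squalene to cholesterol, was set beside the first. Of its 11 enzymes, all measured, 7 were lower and 0 were higher (limma adjusted p under 0.05, against 1.57% of all genes lower), and the median log2 fold change was -0.35. Every thymol library lay below every DMSO library for 7 of the 11, as against 2 of the 8 mevalonate arm enzymes and 1.16% of all genes. The smallest p-values were those of *Hsd17b7*, *Msmo1* and *Nsdhl*, which act together in the demethylation of the sterol ring. Their log2 fold changes were -0.45 (limma adjusted p = 2.90e-05), -0.39 (limma adjusted p = 4.05e-05) and -0.70 (limma adjusted p = 6.13e-05). The difference between the arms was not tested.

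**Figure D4:**
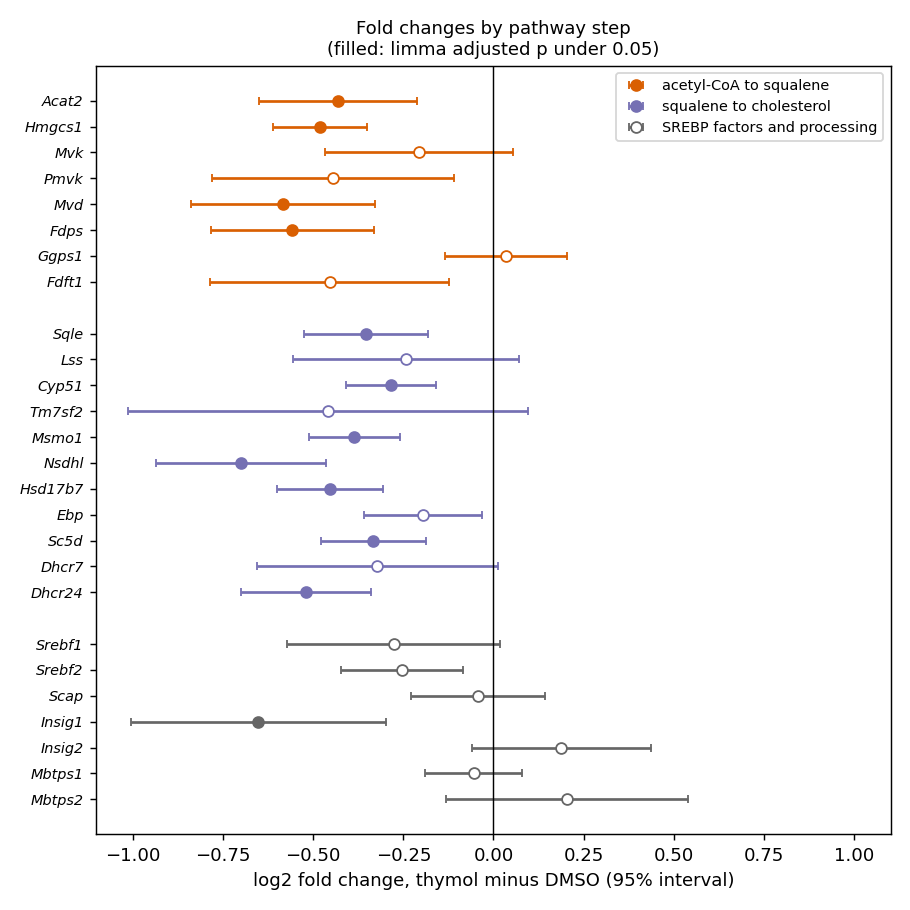
Log2 fold change, thymol minus DMSO, with its 95% interval (x axis) for the enzymes of both arms and the SREBP genes (y axis, in pathway order). Filled points have a limma adjusted p under 0.05: 4 of 8 in the mevalonate arm, 7 of 11 from squalene to cholesterol and 1 of 7 among the SREBP genes.

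Among the 7 genes of the SREBP factors and their processing, 1 was lower and 0 were higher, against 1.57% of all genes lower, and the median log2 fold change was -0.05. The 1 was *Insig1*, whose protein retains SREBP in the endoplasmic reticulum and which is itself a well-known SREBP target. It fell by 0.65 (SE 0.18, limma adjusted p = 0.0275), and 4 of the 12 fits that left out 1 library lost the call, those without DMSO replicate 1, 2 or 5 or thymol replicate 2, with limma adjusted p-values of 0.0864, 0.0509, 0.0602 and 0.141. The *Insig1* call was also lost without a variance trend in the fit (limma adjusted p = 0.157) and in the odd- or even-numbered libraries alone (limma adjusted p = 0.440 and 0.148). *Srebf2*, which encodes SREBP2 and is named here outside the rule for named genes, had a log2 fold change of -0.25 and did not pass (limma adjusted p = 0.112).

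The supply of acetyl-CoA and the users of isoprenoids lie on either side of the members. Over all genes 2.22% passed in either direction, the share to set beside the counts below. Of the 4 listed genes of acetyl-CoA supply, 3 were measured and 0 passed in limma, with 1 at an unadjusted p under 0.05 and a median log2 fold change of -0.16. The 1 was *Acly*, named here after its values were seen, which makes cytosolic acetyl-CoA from citrate. Its log2 fold change was -0.21 (limma adjusted p = 0.0693), with no overlap between the groups. Such a separation, with thymol lower, held for 1.16% of all genes. In the acetyl-CoA supply list, 1 gene passed when low genes were left out or each library was centred on its median. The mitochondrial and ketone body relatives of the enzymes, such as the mitochondrial thiolase *Acat1*, gave 3 measured genes of 6 listed, of which 0 passed in limma, with a median of -0.06. The 1 of these at an unadjusted p under 0.05 was *Aacs*, also named after its values were seen, which activates acetoacetate in the cytosol. Its groups did not overlap, again as in 1.16% of all genes, with a log2 fold change of -0.33 and a limma adjusted p of 0.126. Of 20 listed users of isoprenoids, the prenyltransferases and the enzymes of ubiquinone and dolichol synthesis, 19 were measured and 0 passed in limma, with 2 of the 19 at an unadjusted p under 0.05, a share near the 11.8% of all genes. They had 11 negative and 8 positive fold changes and a median of -0.05.

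The genes outside these lists whose levels most resembled the mean of the 8 standardized enzymes over the 12 libraries were *Pid1* (Pearson r = 0.96), *Pbxip1* (r = 0.94) and *Ehd1* (r = 0.92). The values share the libraries and the difference between the groups, which adds to each r. Within the 6 DMSO libraries r was 0.83, 0.76 and -0.16, and within the 6 thymol libraries it was 0.78, 0.70 and 0.87, in the same order. All 3 genes were lower with thymol, with log2 fold changes of -0.43, -0.29 and -0.23. Selection by r over all 12 libraries favours this direction, so it is no separate result.

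How far the enzymes' calls depended on the libraries was examined with the numbers in the labels, in sets of odd and of even numbers, a split taken over from earlier results of these data. Each set holds 3 libraries a group in place of 6 and is part of the same 12. A call lost in a set is not a test of a difference between the sets. *Hmgcs1* passed in both sets of 6, with a log2 fold change of -0.44 among odd numbers and -0.52 among even numbers. *Fdps* passed among odd numbers, at -0.61, and not among even numbers, at -0.50 (limma adjusted p = 0.159). These are the enzymes whose groups did not overlap over all 12 libraries. *Mvd* passed among even numbers, at -0.76, and not among odd numbers, at -0.40 (limma adjusted p = 0.486). *Acat2* passed in neither, at -0.56 and -0.30 (limma adjusted p = 0.0519 and 0.534). A fit of all 12 libraries that carried the parity of the number as a covariate called all 4.

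**Figure D5:**
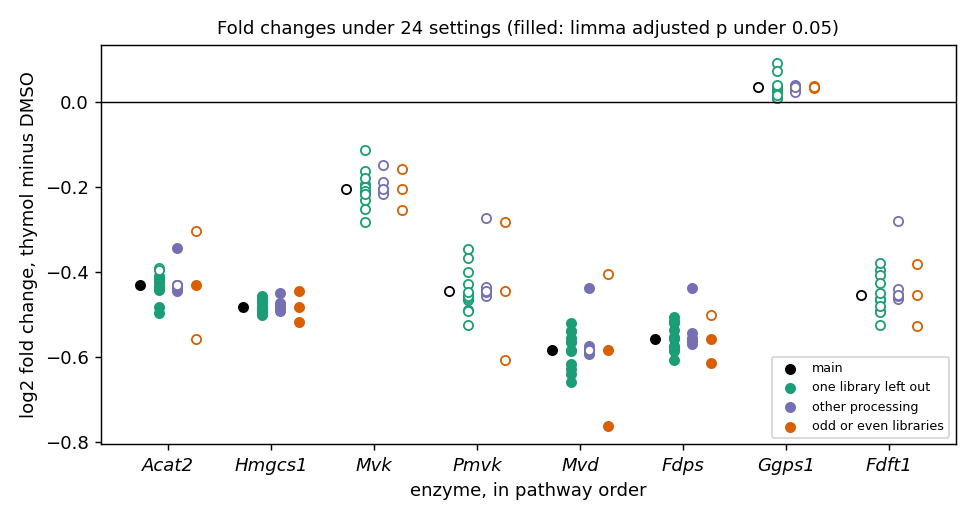
Log2 fold change of each measured enzyme (y axis, thymol minus DMSO) under up to 24 settings (*Mvk*, *Pmvk*, *Mvd* and *Fdft1* have no value under the stricter filter), the main one in black, each left-out library in green, other processing in purple and the fits on odd or even library numbers in orange. Filled points have a limma adjusted p under 0.05, and *Hmgcs1* is filled under every setting plotted.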

How the data were processed

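The 12 libraries were grouped by their labels, 6 per treatment. The authors aligned the QuantSeq reads to GRCm38 with STAR 2.5.3, counted them per gene with HTSeq 0.6.1, kept genes that reached 30 reads in 6 or more libraries (98.0% of those listed did so on recovered reads), and deposited TMM-scaled log2 CPM values with a prior count added. The prior makes fold changes of sparsely read genes smaller. Whole reads were recovered from the steps between low values, and 100% of low values (below 200 reads) came within 0.02 of an integer. Read totals cover counting error only.

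Differences were fitted with limma 3.58.1 in R 4.3.3 (lmFit, eBayes with trend, 2 groups, no covariate). Two-sided p-values took a Benjamini-Hochberg adjustment over 10697 genes, with a threshold of 0.05. The fit was tested on simulated data. Named genes were all members, up to 3 genes with the smallest p-value among those that passed from each other list, and the 3 genes most correlated with the members among genes with a mean of at least 5 log2 CPM. The members and lists were chosen with earlier results of these data known. The promoter motifs were chosen from general knowledge after the files had been seen. Gene coordinates were read from GENCODE vM21 (GRCm38). The same-numbered libraries were not paired in the fit.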

Additional observations from a re-analysis of the deposited data

Results flagged for a closer look

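Dixon's test was applied to 18 groups of 6 values, the 8 enzymes and the read totals in each treatment, and 3 groups passed the 95% critical value, where chance flags about 1 in 20 groups, or 0.9 of 18. *Acat2* in thymol replicate 1 was at 5.36 log2 CPM, above the 4.99 to 5.11 of the other 5 thymol libraries. *Ggps1* in DMSO replicate 3 was at 6.46 log2 CPM, above the 6.05 to 6.18 of the other 5 DMSO libraries, and without that library its log2 fold change was 0.091. Thymol replicate 5 had 9049796 recovered reads, against at most 6585162 in the other thymol libraries. Without thymol replicate 5, *Hmgcs1*, *Acat2*, *Mvd* and *Fdps* still passed, and the call of no enzyme changed.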

How the results depend on the processing

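Of 23 alternatives, 8 changed the processing, 12 left out 1 library each and 3 used odd or even library numbers, a split chosen with the data known. No fold change of an enzyme changed sign under any of them. Without a variance trend, 57 genes passed in place of 238, with 2 mevalonate arm enzymes (*Hmgcs1* and *Fdps*) in place of 4 and 4 post-squalene enzymes in place of 7, and the limma adjusted p was 0.0798 for *Acat2* and 0.0662 for *Mvd*; the cause was not tested. The odd-numbered libraries alone gave 70 genes, with 2 mevalonate arm and 3 post-squalene enzymes. The even-numbered libraries alone gave 167 genes, with 2 mevalonate arm and 5 post-squalene enzymes. Each of these sets holds 3 libraries a group in place of 6. Leaving out 1 library at a time gave 172 to 270 genes, 3 to 4 mevalonate arm enzymes and 6 to 7 post-squalene enzymes. With genes of a mean of at least 5 log2 CPM only, 4 of the 8 enzymes were kept and 3 passed, *Mvd* lying below that level. With 10 added to the CPM before the logarithm, the same 4 enzymes passed and the median fold change of the 8 was -0.31, as that construction draws low levels together.

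With the replicate number as a replicate block, 332 genes passed and the same 4 mevalonate arm enzymes. The labels do not say whether the numbers pair the libraries. The correlations of same-numbered deviations lay between -0.051 and 0.27, and only replicate 1 matched its own number best. Such correlations cannot settle whether the libraries were paired. *Pmvk* and *Fdft1* had the fewest reads on average of the measured enzymes, 63 to 172 per library. The part of depth in their spread was not tested.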
